A study of Mus musculus with 16 samples.

Results

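The genes described here encode enzymes with which sebaceous glands make the lipids of sebum, together with a receptor of the gland. They were taken by symbol, as the 10 of 55359 annotated genes that are named Scd1, Scd3, Elovl3, Acsbg1, Far2, Awat1, Awat2, Dgat2, Soat1 and Mc5r. Their polyadenylated RNA was measured by bulk RNA-seq in whole dorsal skin of 16 wild-type C57Bl/6N mice (C57Bl/6 in the sample labels), 8 weeks old, whose hair follicles were in the resting phase (telogen). The mice formed 4 groups of 4: males and females whose dorsal skin was irradiated with UVB 3 times on alternate days, and males and females that were not irradiated. Irradiated skin was collected 6 h after the last exposure. Per the study's methods mice were shaved for irradiation, and whether the controls were shaved too is not given in the sources used here.

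Sebaceous glands open into the upper hair follicle, and their cells, the sebocytes, fill with lipid droplets and then burst to release sebum onto hair and skin. Mouse sebum is rich in wax esters, triglycerides and sterol esters built on long, often monounsaturated fatty acids. In outline, desaturases (Scd1, Scd3) and an elongase (Elovl3) shape the fatty acid, an acyl-CoA synthetase (Acsbg1) activates it, a reductase (Far2) turns part of it into fatty alcohol, and acyltransferases join it to an alcohol to form wax esters (Awat1, Awat2), to diacylglycerol to form triglyceride (Dgat2) or to cholesterol (Soat1). Mc5r is a melanocortin receptor known for its role in sebum secretion. Several of these enzymes also work in fat cells, keratinocytes or other cells of the skin, and in whole skin fewer cells of a type and less RNA per cell cannot be told apart.

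Each library held between 16495776 and 33404831 reads assigned to genes on the strand of the kit, with a median of 21767339, and every member was counted at least 250 times in every mouse. Levels are given as CPM, a gene's count relative to the size of its library, after TMM scaling, which sets the libraries to a common scale. A member was called changed at an adjusted p below 0.1 by the quasi-likelihood test of edgeR, adjusted after Benjamini and Hochberg over all genes tested, and fold changes are on the log2 scale with their standard error (SE) or 95% interval. The female-specific transcript Xist stood at 1020 CPM or more in every female and at 5.13 CPM or less in every male. Of the 16 other markers and regulators of the sebaceous gland that were listed, all 16 passed the filter on low counts in males and 15 in females. Nothing in the labels says that the mice came from separate litters or batches, and no batch is named.

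The DNA just before the transcription start is shown for 3 of the 4 members that rose with UVB in both sexes, Soat1, Far2 and Awat1, and for Scd3, which fell in males. The lines give 250 bases of GRCm39 upstream of the GENCODE canonical start, 5′ to 3′ along the gene's strand, at chr1:156301902-156302151 (minus strand) for Soat1, chr6:147948298-147948547 (plus) for Far2, chrX:99615607-99615856 (plus) for Awat1 and chr19:44191458-44191707 (plus) for Scd3. Capitals mark matches to 7 searched motifs.
Soat1: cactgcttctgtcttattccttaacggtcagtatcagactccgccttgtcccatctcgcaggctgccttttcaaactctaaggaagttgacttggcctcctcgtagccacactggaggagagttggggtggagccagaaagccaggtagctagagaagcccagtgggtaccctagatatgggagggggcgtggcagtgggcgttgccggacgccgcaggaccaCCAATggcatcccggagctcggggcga
Far2: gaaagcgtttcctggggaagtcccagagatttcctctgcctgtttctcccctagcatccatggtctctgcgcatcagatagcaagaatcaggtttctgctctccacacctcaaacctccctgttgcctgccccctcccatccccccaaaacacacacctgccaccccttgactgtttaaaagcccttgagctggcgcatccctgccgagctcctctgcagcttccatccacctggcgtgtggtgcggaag
Awat1: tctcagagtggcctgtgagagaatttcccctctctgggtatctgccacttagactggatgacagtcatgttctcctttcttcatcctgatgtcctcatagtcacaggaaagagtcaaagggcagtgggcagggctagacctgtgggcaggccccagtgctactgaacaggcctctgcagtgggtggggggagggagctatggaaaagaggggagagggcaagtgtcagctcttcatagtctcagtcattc
Scd3: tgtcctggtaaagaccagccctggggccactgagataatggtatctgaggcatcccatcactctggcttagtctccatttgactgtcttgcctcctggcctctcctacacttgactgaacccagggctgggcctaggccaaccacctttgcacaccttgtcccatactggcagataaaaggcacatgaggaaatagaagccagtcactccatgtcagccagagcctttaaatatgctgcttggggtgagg
The motifs, each searched on both strands, were the TATA box TATAAA, the CCAAT box CCAAT, the GC box GGGCGG, the E-box CACGTG, the nuclear receptor half-site AGGTCA, a direct repeat of that half-site with 1 base between the copies, which contains the half-site, and the sterol element TCACNCCAC. Soat1 held CCAAT at 27 bases before the start, a motif found in 36.5% of 21770 protein-coding promoters of the same length, and Far2, Awat1 and Scd3 held none of the 7. GGGCGG, present in 36.3% of promoters, TATAAA in 11.9%, CACGTG in 6.26%, AGGTCA in 13.1%, TCACNCCAC in 1.12% and the direct repeat in 0.0367% matched in none of these windows. Noncoding RNAs of the other strand overlap the Far2 and Soat1 windows. The Soat1 window also lies within the span of the annotated gene, which runs to base 156303864, so at least 1 annotated transcript starts further upstream.

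Scd1 and Scd3 both lie on chromosome 19, Scd1 at chr19:44382894-44399154 and Scd3 at chr19:44191708-44232455, and are close copies, which bears on how their reads can be assigned. Their coding sequences matched at 974 of 1065 aligned bases, or 91.5%, with one unbroken identical run of 185 bases. The first line below is a stretch of coding exon 4 that is identical in both (chr19:44390185-44390304, minus strand, and chr19:44224243-44224362, plus strand). The other lines are the least alike stretch of the same length, in coding exon 5 (chr19:44388617-44388736, minus, and chr19:44226892-44227011, plus), where capitals mark the 24 of 120 bases that differ.
Scd1 and Scd3, exon 4: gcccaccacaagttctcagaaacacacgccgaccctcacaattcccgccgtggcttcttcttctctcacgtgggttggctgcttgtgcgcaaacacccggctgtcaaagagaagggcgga
Scd1, exon 5: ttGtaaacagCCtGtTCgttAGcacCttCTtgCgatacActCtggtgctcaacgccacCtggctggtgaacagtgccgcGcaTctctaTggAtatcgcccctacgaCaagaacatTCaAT
Scd3, exon 5: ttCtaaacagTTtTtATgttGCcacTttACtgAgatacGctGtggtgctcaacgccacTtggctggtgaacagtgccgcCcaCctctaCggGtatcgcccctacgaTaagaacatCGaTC
Of all windows of 50 coding bases, 21.9% in Scd1 and 21.3% in Scd3 also occurred in another stearoyl-CoA desaturase gene. Reads within such windows cannot be told apart by sequence. Counts were taken over all exons, 7206 bases in Scd1 and 3552 in Scd3. Of these, 1065 and 1077 were coding bases, and the rest was not compared between the genes. The share of the counts that is uncertain was therefore not measured. None of the other 8 members shared a window of 50 coding bases with its nearest relatives. Awat1 and Awat2, both on the X chromosome, matched at 64.9% of aligned coding bases, with no identical run longer than 17.

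In unirradiated males the levels per kilobase of exon ran from 548 CPM per kb for Scd1 and 159 for Scd3, through 87.7 for Awat1, 58.8 for Dgat2, 58.7 for Far2, 46.1 for Acsbg1, 30.4 for Awat2 and 26.3 for Elovl3, down to 10.9 for Soat1 and 6.74 for Mc5r. Dgat2 and Far2 differed by less than the spread between mice, as did Awat2 and Elovl3. Scd1 alone made up 64.4% ± 5.13 (SD, n = 4) of the summed CPM of the 10 members in that group and between 64.7% and 67.1% on average in the other groups.

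**Figure D1:**
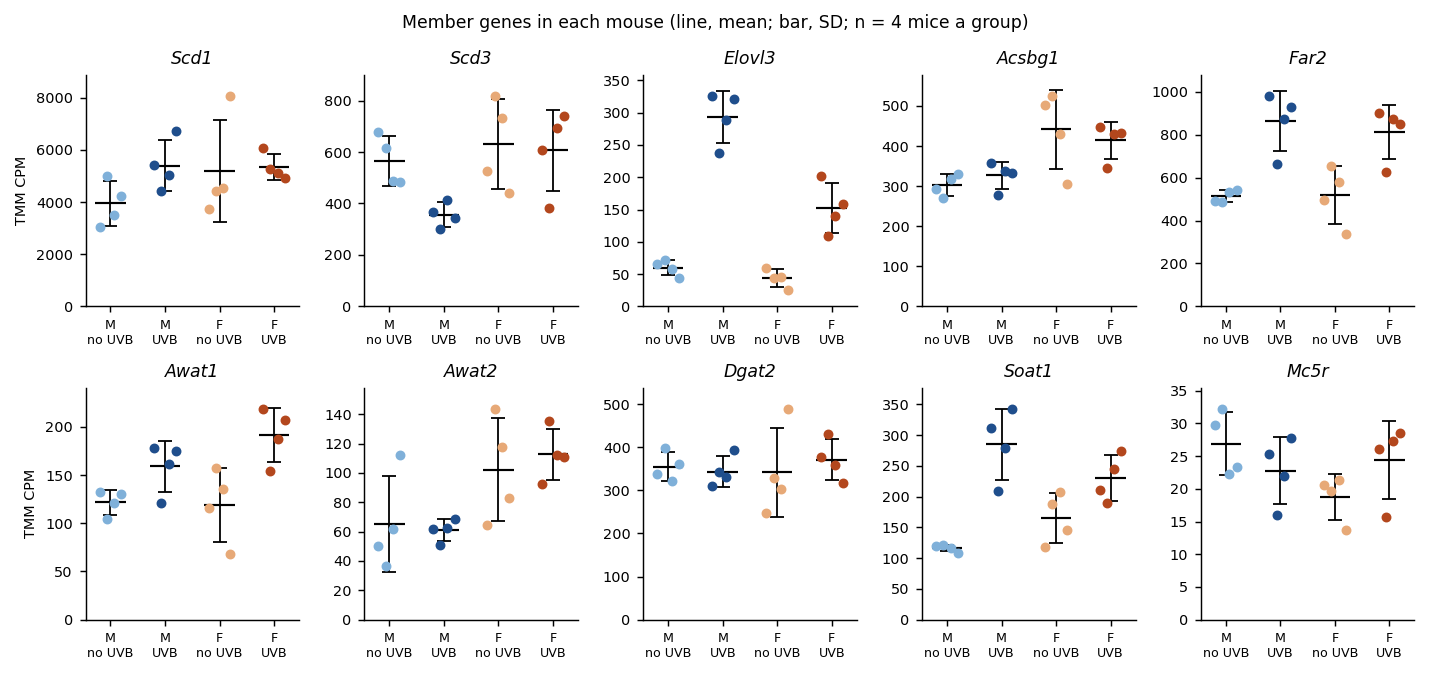
Each panel plots 1 member, with TMM-scaled CPM from 0 on the vertical axis and the 4 groups (M, males, and F, females) on the horizontal axis. Points are mice, the line is the mean and the bar the SD of 4 mice. Elovl3 in irradiated skin lay above every unirradiated mouse in both sexes, and Scd3 in irradiated males lay below every unirradiated male.

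In males UVB raised 5 of the 10 members and lowered 1. Elovl3, Soat1, Far2, Scd1 and Awat1 rose and Scd3 fell, while Acsbg1, Awat2, Dgat2 and Mc5r were not called. Among all 16535 genes tested in males 29% were called higher and 30.5% lower, 59.6% in all, so 5 and 1 of 10 are to be read against a response that touched most of the transcriptome. The median log2 fold change was 0.27 over the members and -0.0228 over all genes. Elovl3 and Soat1 also passed a log2 fold change of 1, as 4.08% of all genes did upward and 3.31% downward. In 3 of the risers, Elovl3, Soat1 and Far2, and in Scd3 the irradiated and unirradiated males did not overlap, which was the case for 22.9% of all genes upward and 24.3% downward.

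In females UVB raised 4 of the 10 members, namely Elovl3, Far2, Awat1 and Soat1. Of the 16883 genes tested in females 12.8% were called higher and 10.6% lower, 23.4% in all. Upper quartile scaling moved the share of all calls that were higher from 54.7% to 44.6%. No member was called lower by edgeR, and the same count of 0 was found at an unadjusted p below 0.05 and by DESeq2. The members' median was 0.263 against 0.0025 over all genes. Elovl3 was the member past a log2 fold change of 1, as 1.63% of genes were upward and 1.08% downward, and also the one whose groups did not overlap, as in 11.1% of genes upward and 10.1% downward. The 2 responses were estimated on separate mice, and Elovl3, Far2, Awat1 and Soat1 were called higher in both. How many of all genes were called higher in both was not counted, so this overlap is a description only.

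**Figure D2:**
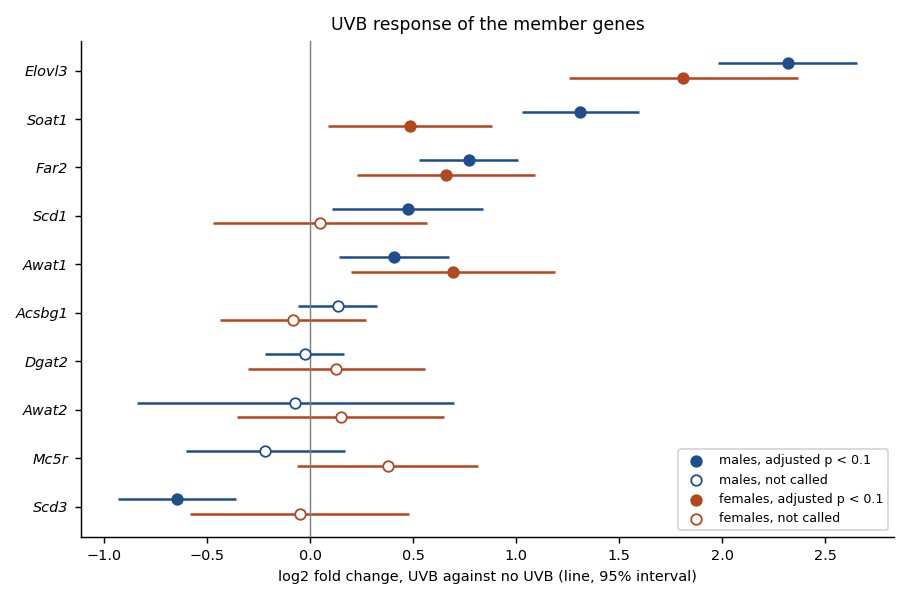
Log2 fold change of irradiated against unirradiated skin (horizontal axis) for each member (vertical axis), males in blue and females in orange, from edgeR fits on 8 mice each. Filled points passed an adjusted p below 0.1, open points did not, and lines are 95% intervals. The male interval for Soat1 runs from 1.03 to 1.597 and the female one from 0.085 to 0.882.

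Elovl3, which extends saturated and monounsaturated fatty acids to very long chains, showed the largest response of the members in both sexes. Its CPM in the 4 unirradiated males was 65.3, 71.3, 57.5 and 44.6, and in the 4 irradiated males 326.5, 238, 289 and 320.5. In females it was 59.3, 44.3, 45.1 and 25.6 without UVB and 201.5, 109.8, 139 and 159 with UVB. Every irradiated mouse of either sex was above every unirradiated one. The log2 fold change was 2.32 ± 0.151 (SE) in males (edgeR adjusted p = 3.54e-06), a 4.98-fold rise, and 1.81 in females with an interval from 1.25 to 2.37 (edgeR adjusted p = 0.00162), a 3.51-fold rise. The 2 responses were not shown to differ (difference 0.50, interval -0.18 to 1.17, edgeR adjusted p = 0.39).

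Scd1 and Scd3 put the double bond into stearoyl- and palmitoyl-CoA, and in males they moved in opposite directions. Scd3 stood at 679, 615, 488 and 482 CPM in unirradiated males and at 368, 300.5, 414 and 343 CPM in irradiated males, all 4 of which were lower. That was a log2 fold change of -0.65 ± 0.130 (SE, edgeR adjusted p = 0.00185). Scd1 stood at 3042, 5001, 3496 and 4242 CPM without UVB and at 5422, 4421, 5037 and 6707 CPM with UVB in males. The 2 groups overlapped, and the log2 fold change was 0.47 (interval 0.11 to 0.84, edgeR adjusted p = 0.0333). With every gene of at least 1 count tested, Scd1 was no longer called in males (adjusted p = 0.119). In females Scd3 ranged from 442 to 819 CPM without UVB and from 384 to 741.5 with UVB, a log2 fold change of -0.05 (interval -0.58 to 0.48). Female Scd1 ranged from 3730 to 8078 CPM without UVB and from 4911 to 6063 with UVB, a log2 fold change of 0.05 (interval -0.47 to 0.57). Neither difference between the sexes was called, with -0.61 for Scd3 (interval -1.24 to 0.02, edgeR adjusted p = 0.255) and 0.41 for Scd1 (adjusted p = 0.465).

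Acsbg1, the acyl-CoA synthetase, was not called in either sex. It ranged from 270 to 330 CPM in unirradiated and from 279 to 359 in irradiated males, and the log2 fold change was 0.13 (interval -0.06 to 0.33). In females it ranged from 306 to 526 CPM without UVB and from 346 to 446 with UVB, with a log2 fold change of -0.08 (interval -0.44 to 0.27). Without the second irradiated male it was called in males (0.20, edgeR adjusted p = 0.0532).

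Far2, the fatty acyl-CoA reductase that supplies fatty alcohol for wax esters, rose in both sexes by a similar amount. Males had 493, 488, 532 and 540 CPM without UVB and 982, 663, 874.5 and 930.3 with UVB, with no overlap. Females had 498, 656, 577 and 339 CPM without UVB and 903, 627, 873 and 850.5 with UVB, where 1 irradiated mouse lay below the highest unirradiated one. The log2 fold change was 0.77 ± 0.110 (SE, edgeR adjusted p = 0.000163) in males and 0.66 (interval 0.23 to 1.09, edgeR adjusted p = 0.0453) in females. The difference between the sexes was 0.10 with an interval from -0.41 to 0.60. Without the first or the third irradiated female the female call was lost (adjusted p = 0.117 and 0.108), as it was with every gene of at least 1 count tested (0.108).

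The wax synthases Awat1 and Awat2, acyltransferases that join fatty alcohol and acyl-CoA, differed in their calls. Awat1 in males stood at 132, 104, 121 and 130.5 CPM without UVB and at 178, 121, 162 and 175 with UVB, where the second irradiated male fell among the controls. Female Awat1 stood at 115, 158, 135 and 68.0 CPM without UVB and at 219, 154, 187 and 207 with UVB. The log2 fold change was 0.41 (interval 0.14 to 0.67, edgeR adjusted p = 0.0166) in males and 0.69 (interval 0.20 to 1.19, edgeR adjusted p = 0.0629) in females. The male call was lost with all 16 mice in 1 fit (0.38, edgeR adjusted p = 0.125). Leaving out any one of 4 female mice ended the female call, with adjusted p between 0.108 and 0.157, as did testing every gene of at least 1 count (0.241). Awat2 ranged from 36.5 to 112 CPM in unirradiated males, a wider spread than the 50.7 to 68.7 of irradiated males, and its log2 fold change was -0.07 (interval -0.84 to 0.70). In females it ranged from 64.6 to 144 CPM without UVB and from 92.6 to 135 with UVB, a log2 fold change of 0.15 (interval -0.35 to 0.65). The male interval was the widest of the members and held sizeable changes of either sign.

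Dgat2, which makes triglyceride, stayed within a narrow range in males, 322 to 399 CPM without UVB and 309 to 393 with UVB. The male log2 fold change was -0.03 with an interval from -0.22 to 0.17. In females it ranged from 247 to 489 CPM without UVB and from 316 to 431 with UVB, with a log2 fold change of 0.13 (interval -0.30 to 0.56).

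Soat1, which esterifies cholesterol, gave the largest difference of the members between the responses of the sexes. In males it stood at 119, 121, 117 and 108 CPM without UVB and at 311, 209, 278 and 343 with UVB. In females it stood at 118, 188, 208 and 146 CPM without UVB and at 210.0, 190, 245 and 274.5 with UVB. The male groups were far apart and the female groups overlapped. The log2 fold change was 1.31 ± 0.128 (SE, edgeR adjusted p = 2.48e-05) in males, a 2.48-fold rise, and 0.48 ± 0.178 (edgeR adjusted p = 0.0965) in females. The female call was near the threshold and was lost on leaving out any one of 6 of the 8 females (adjusted p between 0.112 and 0.22), with DESeq2 size factors (0.104), with upper quartile scaling (0.115), without the 100 most abundant genes in the scaling (0.101) and with every gene of at least 1 count tested (0.24). The male response exceeded the female one by 0.82 (interval 0.30 to 1.32, edgeR adjusted p = 0.0764), when 7% of 17406 genes differed, 2.75% with a higher and 4.25% with a lower value in males. Of those calls 39.2% were higher, against 32% to 55.6% under other scalings. Soat1 was the 1 member called in that comparison, and none was called lower by edgeR, by DESeq2 or at an unadjusted p below 0.05. The call was lost on leaving out any one of 10 of the 16 mice and with every gene of at least 1 count tested (adjusted p = 0.209). The difference itself stayed between 0.69 and 0.94 on leaving out each mouse.

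Mc5r, the receptor, was the least abundant member per kilobase in all 4 groups. It stood at 29.8, 32.2, 22.4 and 23.3 CPM in unirradiated males, 25.4, 15.9, 21.9 and 27.7 in irradiated males, 20.6, 19.6, 21.4 and 13.6 in unirradiated females and 26.0, 15.7, 27.4 and 28.6 in irradiated females. The log2 fold change was -0.22 in males (interval -0.60 to 0.17) and 0.38 in females (interval -0.06 to 0.82), and the difference of -0.61 between them was not called (edgeR adjusted p = 0.245). Of the 11 melanocortin pathway genes listed beside it, 1 was not found under its symbol, 2 passed the filter in males and 3 in females. Mrap, an accessory protein of melanocortin receptors, fell by 0.88 in males (edgeR adjusted p = 0.0238), and Agrp, a melanocortin antagonist, rose in females by 0.92 (edgeR adjusted p = 0.0986). DESeq2 called none of these listed genes higher in females, and Agrp did not pass the filter in males.

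Without UVB, males and females differed in 2 of the 10 members, both lower in males, when 11.8% of 17406 genes differed, 7.21% higher and 4.58% lower in males. With all mice kept, the members differed by less than 1 on the log2 scale, a size that 1.13% of genes passed upward and 0.781% downward. Acsbg1 was lower by a log2 difference of -0.54 (interval -0.84 to -0.25, edgeR adjusted p = 0.0248), with 303 ± 26.8 CPM in males and 441 ± 99.0 in females (SD, n = 4 each). Soat1 was lower by -0.50 (edgeR adjusted p = 0.0879), with 116.5 ± 5.62 CPM in males and 165 ± 40.6 in females, a call that 8 of the 16 leave-one-out fits lost, as did testing every gene of at least 1 count (adjusted p = 0.23). No member was called higher in males by edgeR, while 1 passed an unadjusted p below 0.05 and DESeq2 called 1. That member was Mc5r, whose 4 unirradiated males were all above the 4 females, as in 7.8% of genes, with 5.17% the other way (log2 difference 0.51, edgeR adjusted p = 0.146, DESeq2 adjusted p = 0.0955). Awat2 was not called (-0.65, interval -1.28 to -0.02, edgeR adjusted p = 0.206), and without the fourth unirradiated male, its highest at 112 CPM, it was called at -1.04 (edgeR adjusted p = 0.0247).

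After UVB, males and females differed in 3 members, when 25.2% of genes differed, 12.8% higher and 12.5% lower in males. With upper quartile scaling 37.7% of all calls were higher, against 50.6%. None of the differences reached 1 on the log2 scale, which 1.37% of genes passed upward and 1.47% downward. Elovl3 was higher in males by 0.95 (interval 0.47 to 1.42, edgeR adjusted p = 0.011), at 294 ± 40.4 against 152 ± 38.5 CPM, and its lowest irradiated male was above its highest irradiated female, as in 11.5% of genes. Scd3 was lower by -0.77 (interval -1.21 to -0.32, edgeR adjusted p = 0.0222), at 357 ± 47.4 against 606 ± 159 CPM. Awat2 was lower by -0.89 (interval -1.52 to -0.26, edgeR adjusted p = 0.0518), at 60.8 ± 7.48 against 113 ± 17.4 CPM, also without overlap, as in 9.76% of genes downward. Without the second irradiated female, or the first or second irradiated male, Awat2 was no longer called (adjusted p between 0.105 and 0.13), nor was it with every gene of at least 1 count tested (0.139). Acsbg1, at -0.34 (interval -0.63 to -0.05, edgeR adjusted p = 0.102), narrowly missed the threshold. It was called with upper quartile scaling (adjusted p = 0.0696), with genes of at least 10 counts in every mouse (0.0945) and on leaving out any one of 4 of the females (0.031 to 0.0956) or the fourth unirradiated and second irradiated females together (0.0121). These sex comparisons and the UVB responses share mice, so they are not independent of each other.

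Markers of other cells also differed between the sexes. Without UVB, 4 of 7 dermal fibroblast markers were higher in males (median 0.752) and 2 of 14 adipocyte markers lower (median -0.095). Of 8 keratinocyte markers none was called by edgeR, by DESeq2 or at an unadjusted p below 0.05. After UVB, 6 of the 8 keratinocyte markers (median 0.735) and 3 of the 7 fibroblast markers (median 0.161) were higher and 10 of the 14 adipocyte markers lower (median -0.784) in males. The part of these cells in the members' sex differences was not tested.

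Some mice were at the low end of their group for most members. The second irradiated male had the lowest value of its group for every member but Dgat2, and without it Acsbg1 joined the members called higher in males, 6 in all. The fourth unirradiated female had the lowest Elovl3, Acsbg1, Far2, Awat1, Scd3 and Mc5r of its group and the highest Scd1 (8078 CPM) and Dgat2 (489 CPM). The second irradiated female had the lowest Scd3, Elovl3, Acsbg1, Far2, Awat1, Soat1 and Mc5r of its group and the highest Awat2 and Dgat2. With these 2 females left out, Elovl3, Far2 and Awat1 remained called higher in females, Soat1 lost its call (0.50, edgeR adjusted p = 0.171) and Mc5r gained one (0.41, edgeR adjusted p = 0.0159), as it did without the second irradiated female alone (0.54, edgeR adjusted p = 0.0299). Without both females the Soat1 difference between the responses of the sexes was 0.79 (adjusted p = 0.117). Between the sexes after UVB, Awat2 then lost its call (-0.79, edgeR adjusted p = 0.15). Awat1 (-0.36, edgeR adjusted p = 0.082) gained one, as did Acsbg1. Leaving out both was an alternative chosen after the values had been seen.

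Within groups some members varied together from mouse to mouse. Each mouse's deviation of log2 CPM from its group mean was correlated over 16 mice for the 45 pairs of members and for each member with Adipoq, a fat cell hormone, and Krt14, a basal keratinocyte keratin, 65 relations in all. By a permutation test within groups, 6 pairs passed an adjusted p below 0.05, all positive, and 29 of the 45 pairs had r above 0. The share of such pairs among other genes was not computed, so these counts do not set the members apart. Far2 and Awat1 were the closest pair, with r = 0.954 (permutation p = 0.0003, adjusted 0.0195) and rho = 0.891 (permutation p = 0.00042, adjusted 0.0273), and r was 0.892 without the 2 mice farthest from the median of Far2. Acsbg1 followed both, with r = 0.904 for Far2 and 0.901 for Awat1 (permutation p = 0.00312 and 0.00224, each adjusted 0.0338), falling to 0.774 and 0.767 without 2 mice. Mc5r followed Elovl3 at r = 0.794 and Scd3 at r = 0.787 (permutation p = 0.00135 and 0.00284, each adjusted 0.0338), falling to 0.658 and 0.582 without 2 mice. Scd1 followed Dgat2 at r = 0.834 (permutation p = 0.0023, adjusted 0.0338), or 0.651 without 2 mice. By rho, the pair of Far2 and Awat1 and the pair of Soat1 and Mc5r (rho = 0.75, permutation p = 0.00216, adjusted 0.0468) passed among pairs of members, and the other 5 pairs named here had adjusted p between 0.118 and 0.223. All 6 calls rest on few mice: none remained without the second or the fourth unirradiated female or without the second irradiated male, 2 remained without the second irradiated female, and 3 without the first irradiated female or the first irradiated male.

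**Figure D3:**
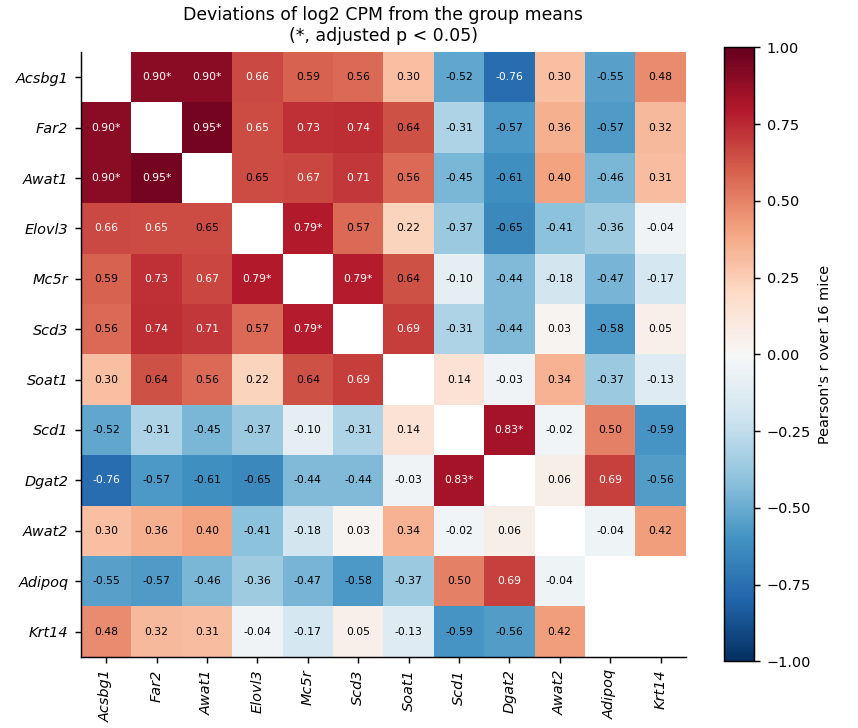
Pearson's r over 16 mice between deviations of log2 CPM from the group means, for the 10 members, Adipoq and Krt14 on both axes, with red for positive and blue for negative values. An asterisk marks an adjusted p below 0.05 in a permutation test. Acsbg1, Far2 and Awat1 form a block at 0.90 to 0.95, and Scd1 pairs with Dgat2.

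Scd1 and Dgat2 are also made by fat cells, and the fat cell marker Adipoq had a positive r with 2 members, Dgat2 and Scd1, and a negative one with the other 8. None of the 10 relations with Adipoq passed by r. Dgat2 came closest (r = 0.686, permutation p = 0.00874, adjusted 0.0631) and passed by rho (0.809, permutation p = 0.00169, adjusted 0.0468), and r was 0.747 without 2 mice. For Scd1 r was 0.502 (permutation p = 0.0527, adjusted 0.161), or 0.295 without 2 mice, and rho 0.512 (permutation p = 0.0505, adjusted 0.235). With Krt14 no relation passed by r or rho.

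**Figure D4:**
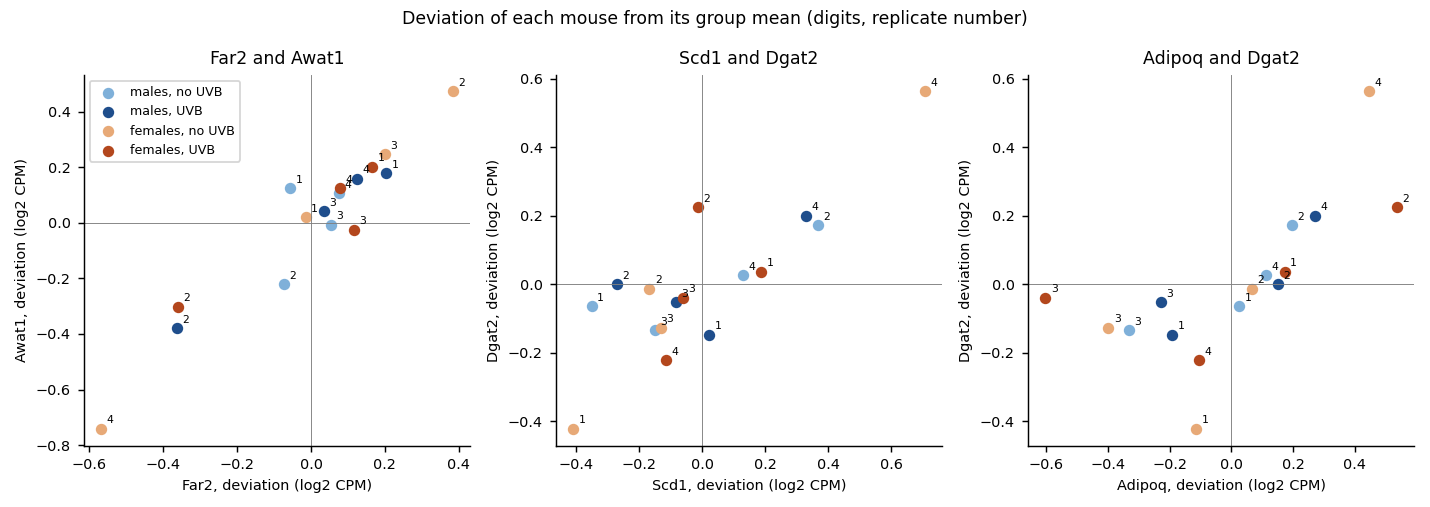
Each point is 1 of 16 mice, coloured by group and labelled with its replicate number, and both axes are deviations of log2 CPM from the group mean. Far2 and Awat1 lie along a line with the fourth unirradiated female at the low end, which is also the mouse at the high end of Scd1 and Dgat2.

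Over 15107 other genes with at least 1 CPM, those whose deviations were most like each member's were ranked by r, as a description without a test. For Far2 they were Pnpla5 (r = 0.969), Rdh11 and Cidea, for Awat1 Ces4a (0.953), Sgpl1 and Cidea, and for Acsbg1 Plin2 (0.945), a lipid droplet coat protein, Pnpla5 and Slc46a2. For Dgat2 they were Retn (0.947), the fat cell hormone resistin, Gpd1 and Pcx. For Scd1 they were Slc25a1 (0.94), the citrate carrier of mitochondria, Acss2 and Mtss1. For Elovl3 they were Cep89 (0.94), Sdr16c5 and Lhpp, for Scd3 Ptpn14 (0.93), Hacd2 and Dst, and for Mc5r Hacd2 (0.906), Angptl7 and Wdr48. For Awat2 they were Hamp (0.921), Gm48972 and Elovl6.

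Other genes of these pathways were called in both directions in males and mostly upward in females. Their counts, and those of the marker lists, stand beside 29% of all genes called higher and 30.5% lower in males and 12.8% and 10.6% in females. Of 14 tested genes of fatty acid desaturation and elongation, 9 rose and 2 fell in males and 5 rose in females, with medians of 0.388 and 0.275. Elovl4, an elongase of very long chains, rose by 1.17 in males (edgeR adjusted p = 3.25e-06) and 0.845 in females (edgeR adjusted p = 0.00979). Hsd17b12, the ketoacyl reductase of the elongation cycle, rose by 0.75 and 0.51 (edgeR adjusted p = 3.89e-05 and 0.00854) and Elovl1 by 0.38 and 0.41. Hacd3, the dehydratase of that cycle, rose by 0.59 in males and was not called in females (0.26, edgeR adjusted p = 0.102). Of 11 genes of wax, glyceride and sterol ester formation, 3 rose and 1 fell in males and 4 rose in females. Far1, the relative of Far2, rose by 1.02 in males and 0.37 in females (edgeR adjusted p = 1.13e-05 and 0.0281), Dgat1 by 0.41 and 0.57 and Lpin3 by 0.23 and 0.34.

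Of 13 genes of fatty acid activation and transport, 3 rose and 5 fell in males and 2 rose and 1 fell in females. Fabp5, a fatty acid carrier of epidermis, rose by 1.91 and 0.93 (edgeR adjusted p = 4.74e-07 and 0.00115) and Slc27a4, a fatty acid transporter, by 1.12 and 0.71. Acsl3 fell in males by 0.65 and Slc27a3 in females by 0.34. Of 8 genes of fatty acid synthesis, Acly rose by 0.63 and Mlxipl fell by 0.55 in males. In females none was called by edgeR, 1 passed an unadjusted p below 0.05 and DESeq2 called 1. Of 12 genes of the lipid droplet coat and lipolysis, 4 rose and 6 fell in males and 4 rose in females. Abhd5 (0.72 and 0.47), Plin2 (0.66 and 0.45) and Mgll (0.70 and 0.64) rose in both sexes.

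Of the 16 further sebaceous gland markers and regulators tested in males, 8 rose and 5 fell, and of the 15 tested in females, 8 rose and 2 fell. Fa2h, which makes 2-hydroxy fatty acids, rose by 1.25 in males (edgeR adjusted p = 3.45e-06) and 0.81 in females (edgeR adjusted p = 0.0266). Krt79, a keratin of the upper follicle and gland duct, rose by 0.92 in males and was not called in females (0.23). Mgst1 rose by 0.29 in males and 0.60 in females, and Srd5a1, a steroid 5-alpha-reductase, by 0.55 and 0.47. The list's summed level ran from 2240 to 2521 CPM in unirradiated and 3496 to 3925 in irradiated males, and from 1957 to 2854 and 2656 to 3354 in females.

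**Figure D5:**
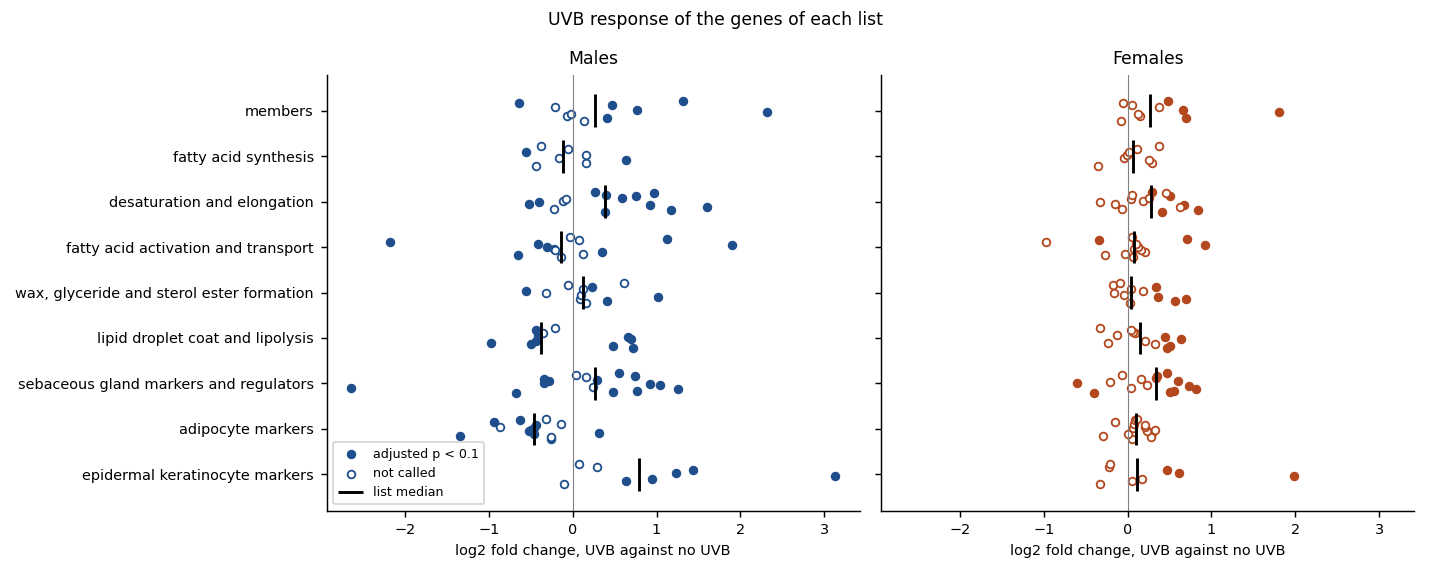
Log2 fold change of irradiated against unirradiated skin for every tested gene of 9 lists, males on the left and females on the right. Filled points passed an edgeR adjusted p below 0.1, open points did not, and the bar is the list median. The members' medians are 0.27 and 0.263, and that of the adipocyte markers is -0.461 in males and 0.1 in females.

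Markers of other cells moved with UVB as well. Of 14 adipocyte markers 9 fell and 1 rose in males, with a median of -0.461, and 1 rose in females, with a median of 0.1. Adrb3 fell by 1.35 and Cfd by 0.52 in males, and Cebpa, a transcription factor of adipocytes and sebocytes, rose by 0.31 in males and 0.29 in females. Their summed level was 3223 to 4723 CPM in unirradiated and 2821 to 3543 in irradiated males, and 3401 to 5587 and 3302 to 6468 in females, so the groups overlapped. In males Scd1 rose and Dgat2 was not called while most of these markers fell, and the part of adipocytes in either value was not tested. Of 8 epidermal keratinocyte markers 5 rose in males and 3 in females, and their sum went from between 8913 and 14000 to between 22180 and 31450 CPM in males and from between 7754 and 11680 to between 12750 and 16270 in females. Krt1 rose by 3.13 and 1.99. The part of keratinocytes in the rise of the members was not tested. Of 7 dermal fibroblast markers 6 fell in males, Col1a1 by 1.66, while 1 rose and 1 fell in females, and their sum went from between 79630 and 86880 to between 28750 and 39690 CPM in males, and from between 19750 and 21020 to between 12660 and 22540 CPM in females. Of 10 macrophage markers 6 fell in males and 2 in females, and of 8 skeletal muscle markers 7 fell in males. In females no muscle marker was called by edgeR, by DESeq2 or at an unadjusted p below 0.05. Of 5 brown adipocyte markers 2 rose and 3 fell in males and 1, Dio2, rose in females, and of 4 hair shaft markers tested 2 rose and 1 fell in each sex.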

How the data were processed

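The deposited files give, for each of 16 mice, read counts per gene as the authors obtained them with STAR on GRCm39 from a directional, poly(A)-selected library (per the labels). Versions and mapping settings are not given in the sources used here. The counts of the kit's strand (column 4) were used. In every file the row for reads at several loci is 0, and between 20.8% and 29.9% of reads were in rows that name no gene, which were left out. Of 55359 identifiers, 54749 matched GENCODE M39 by Ensembl number. Members were on the other strand for at most 1.36% of their reads, except Far2 with up to 5.45%.

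Genes were filtered with filterByExpr, scaled by TMM and tested with edgeR 4.0.16 (quasi-likelihood, robust) in R 4.3.3: 8 males, 8 females, and all 16 mice for comparisons between the sexes. The test was run on simulated data first. The deviations used log2 CPM with a prior count of 2 and 100000 resamples, with Python 3.11.15, numpy 2.4.6, pandas 2.3.3 and scipy 1.17.1. Sequences were read from GRCm39 at GENCODE M39 canonical starts and coding exons and aligned with Biopython 1.88, and CPM per kb used the union of exons. Replicate libraries differed by more than sampling noise (chi-square per degree of freedom 10.4 or more). The edgeR intervals and p-values set differences between group means against the variation between the mice measured here, estimated with information shared across genes.

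The members and the 14 other lists were chosen with earlier results of these data known, so counts over lists are descriptions. Named genes were all members, from each other list up to 3 called genes of smallest adjusted p in each sex, and for likeness the 3 genes of highest r for each member. Some results that these rules select are not reported here. Alternatives covered the strand, scaling, DESeq2 1.42.0, the filter on low counts, the threshold, a replicate block, all 16 mice in 1 fit for the UVB responses, each mouse left out and, chosen after the values were seen, 2 females left out together.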

Additional observations from a re-analysis of the deposited data

Results flagged for a closer look

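Acsbg1 in irradiated females was flagged because 1 mouse, the second, stood far below the rest at 346.1 CPM, the next being 431.0 CPM. It was the 1 group flagged of 40 groups of 4 mice checked, and chance flags about 1 in 20. The same mouse was the lowest of its group for Scd3, Elovl3, Far2, Awat1, Soat1 and Mc5r.

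The male minus female difference in the UVB response of Soat1, 0.82 on the log2 scale (edgeR adjusted p = 0.0764), was flagged as a difference between the sexes. On leaving out each of the 16 mice in turn it ranged from 0.69 to 0.94 and lost its call in 10. With every gene of at least 1 count tested the adjusted p was 0.209.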

How the results depend on the processing

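Of 1452 values recomputed under alternatives, 1300 kept their direction and side of the threshold, or a count within 1.5 times. The other sign was taken in 38, in 0 of them for a value that had been called. In males the counts of 5 higher and 1 lower were within 1.5 times under every alternative run, with 5 to 6 higher on leaving out each mouse.

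In females the 4 higher members fell to 1 with every gene of at least 1 count, to 2 at an adjusted p below 0.05, and ranged from 1 to 5 on leaving out each mouse, the lowest being without the first or the third irradiated female. The 1 member whose response differed between the sexes fell to 0 with every gene of at least 1 count, at an adjusted p below 0.05 and without the fourth unirradiated and second irradiated females together, and ranged from 0 to 1 on leaving out each mouse. Without UVB the 2 members lower in males fell to 1 with every gene of at least 1 count, at an adjusted p below 0.05 and with the replicate block, and ranged from 1 to 2 on leaving out each mouse, while the 0 higher became 1 with DESeq2 and ranged from 0 to 1. After UVB the 2 lower fell to 1 with every gene of at least 1 count and at an adjusted p below 0.05 and ranged from 1 to 3, and the 1 higher from 1 to 2. The 6 positive pairs ranged from 0 to 8, and the 0 relations with Adipoq and with Krt14 from 0 to 1 each. The cause of these changes was not tested beyond the construction of each alternative.

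Values near 0 took the other sign as follows. With the replicate block these were Awat2 in males (0.0329) and Scd1 between the sexes after UVB (-0.0105, and -0.026 with upper quartile scaling). Without the 2 females they were Awat2 in females (-0.0494), Awat1 between the sexes without UVB (-0.16) and Far2 after UVB (-0.022). On leaving out each mouse the ranges were -0.26 to 0.31 for Awat2 and -0.0898 to 0.0435 for Dgat2 in males, and in females -0.0814 to 0.34 for Scd1, -0.19 to 0.11 for Scd3, -0.23 to 0.0101 for Acsbg1, -0.0193 to 0.35 for Awat2 and -0.0014 to 0.35 for Dgat2. For the difference between the responses they were -0.0215 to 0.27 for Far2 and -0.44 to 0.15 for Awat2. Between the sexes without UVB they were -0.19 to 0.10 for Far2, -0.18 to 0.18 for Awat1 and -0.0708 to 0.26 for Dgat2, and after UVB -0.11 to 0.10 for Scd1, -0.022 to 0.19 for Far2 and -0.26 to 0.0382 for Mc5r.

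Over all genes, calls fell from 3949 to 2568 in females and from 2052 to 1280 between the sexes without UVB at an adjusted p below 0.05. For the difference between the responses they went from 1218 to 488 at that threshold, 724 with every gene of at least 1 count, 1975 with DESeq2 and 461 (without the first irradiated male) to 1761 on leaving out each mouse. Without UVB they ranged from 1192 (without the second unirradiated male) to 2264, and after UVB from 2791 (without the first irradiated female) to 4691 around 4391. Another scaling moved the share of calls that were higher from 48.7% to 38.8% in males and from 54.7% to 44.6% in females (upper quartile), from 39.2% to between 32% and 55.6% for the difference, and from 50.6% to 37.7% after UVB (upper quartile).

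The replicate numbers did not pair the mice: same-numbered mice correlated at -0.123 to 0.217, over 0.1 in 4 of 16 pairs, and 7 of 16 correlated best with their own number. The replicate block took the members lower in males without UVB from 2 to 1 (Soat1, adjusted p = 0.11) and left every other count of members as it was.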
